A study of Homo sapiens with 4 samples.

Results

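The genes described here are the Wnt ligands and Wnt receptors: 19 WNT genes, 10 frizzled (FZD) genes and the 5 coreceptor genes LRP5, LRP6, ROR1, ROR2 and RYK. They were chosen by family membership and not by any measured value, although earlier results of these data were known. All 34 were found among the 20136 protein-coding genes of the GENCODE annotation for hg19 (GRCh37). For each gene, every peak that overlapped its span extended by 50 kb on each side was taken from 3 peak lists. The lists came from chromatin immunoprecipitation and sequencing (ChIP-seq) in LNCaP, a human prostate cancer line that responds to androgen, with 1 library per list. For H3K27Ac, a histone mark of active promoters and enhancers, cells at passage 20 were kept in charcoal-stripped serum, which lacks steroid hormones. They then received either ethanol vehicle or 10 nM of the androgen dihydrotestosterone (DHT) for 4 h. For TCF7L2, a transcription factor at the end of the Wnt pathway, cells at passage 15 grew in fetal bovine serum that had not been stripped and received neither agent. An input library was not analysed here.

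Wnt proteins are secreted, lipid-modified ligands that bind a frizzled receptor at the cell surface together with a coreceptor. Binding to a frizzled with LRP5 or LRP6 stabilises β-catenin, which enters the nucleus and works with factors of the TCF and LEF family, TCF7L2 among them. Other Wnt signals pass through frizzleds with ROR1, ROR2 or RYK and act on cell polarity and movement without β-catenin. In the prostate, Wnt ligands are made by both epithelium and stroma and have parts in budding, basal cell renewal and the growth of tumours.

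The value given for a peak is its height, the largest pileup of sequenced tags within it. Heights ran from 9 to 212 tags over 57623 peaks in the vehicle list (median 22), from 10 to 213 over 60752 peaks in the DHT list (median 23) and from 15 to 229 over 20955 peaks in the TCF7L2 list (median 31). The number of reads behind each list is unknown, a limit that also holds for every comparison of vehicle and DHT heights. Heights of the TCF7L2 list are compared only with each other, since serum and peak calling differed. With 1 library per condition there was no replicate check and no test, and intervals in brackets are exact 95% Poisson intervals that cover counting error only. The label LNCaP was checked against cell type markers. An H3K27Ac peak lay over a promoter of the luminal epithelial genes KLK3 and FOLH1 in both lists, as it did for 0 of 4 basal, 1 of 5 neuroendocrine, 1 of 4 leukocyte, 2 of 5 stromal and 2 of 2 endothelial genes. Over the promoter of KLK3, which encodes prostate-specific antigen and is induced by androgen, the tallest peak went from 10 tags in the vehicle list to 148 tags in the DHT list.

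The sequences under the TCF7L2 peaks come first, since they show what DNA lay at the center of this factor's peaks at Wnt genes. Each run is the central 200 bp of a peak, read from the plus strand of GRCh37. The first 7 belong to 7 of the 8 genes with the tallest TCF7L2 peaks over a promoter or inside the gene, and the last 2 are the tallest peaks upstream of WNT16, added after their heights had been seen. Capitals mark 7-letter words found on either strand. The TCF recognition sequence was searched in 4 forms, which were CTTTGAT and the form CTTTGAA, with the form CTTTGTA and finally the form CTTTGTT. The word TGACTCA is read by AP-1 factors, and the word TGTTTAC is read by forkhead factors such as FOXA1. No TGTTTAC lay in these 9 runs.

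WNT3 intron, chr17:44844560-44844759: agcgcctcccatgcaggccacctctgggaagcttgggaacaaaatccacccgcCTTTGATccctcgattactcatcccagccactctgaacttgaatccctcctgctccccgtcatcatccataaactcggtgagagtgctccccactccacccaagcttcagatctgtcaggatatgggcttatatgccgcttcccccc
LRP5 intron, chr11:68110040-68110239: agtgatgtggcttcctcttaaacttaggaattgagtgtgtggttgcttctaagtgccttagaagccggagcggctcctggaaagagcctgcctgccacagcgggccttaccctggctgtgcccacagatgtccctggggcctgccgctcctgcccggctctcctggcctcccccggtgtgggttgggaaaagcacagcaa
WNT11 promoter, chr11:75921755-75921954: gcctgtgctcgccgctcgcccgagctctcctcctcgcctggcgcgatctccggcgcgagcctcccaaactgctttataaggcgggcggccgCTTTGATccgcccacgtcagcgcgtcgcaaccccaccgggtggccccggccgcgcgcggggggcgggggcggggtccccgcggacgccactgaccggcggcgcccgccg
RYK intron, chr3:133920380-133920579: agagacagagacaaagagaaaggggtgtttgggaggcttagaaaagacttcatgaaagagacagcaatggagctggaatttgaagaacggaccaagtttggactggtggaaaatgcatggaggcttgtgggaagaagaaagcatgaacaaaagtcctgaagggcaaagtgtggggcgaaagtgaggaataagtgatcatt
WNT5B intron, chr12:1650020-1650219: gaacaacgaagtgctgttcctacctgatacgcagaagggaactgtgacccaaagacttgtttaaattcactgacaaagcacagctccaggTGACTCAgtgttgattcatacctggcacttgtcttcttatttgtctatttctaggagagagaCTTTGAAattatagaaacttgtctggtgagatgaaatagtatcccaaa
WNT9A intron, chr1:228122525-228122724: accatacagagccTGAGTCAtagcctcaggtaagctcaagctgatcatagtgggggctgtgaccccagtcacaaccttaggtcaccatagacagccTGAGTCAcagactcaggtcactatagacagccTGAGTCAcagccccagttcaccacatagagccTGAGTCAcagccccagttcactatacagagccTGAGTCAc
FZD1 promoter, chr7:90893480-90893679: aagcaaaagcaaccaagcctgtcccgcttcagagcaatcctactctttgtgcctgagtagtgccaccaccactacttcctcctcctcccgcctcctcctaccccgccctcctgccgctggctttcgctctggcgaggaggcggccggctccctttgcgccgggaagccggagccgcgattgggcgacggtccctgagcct
WNT16 upstream, chr7:120938900-120939099: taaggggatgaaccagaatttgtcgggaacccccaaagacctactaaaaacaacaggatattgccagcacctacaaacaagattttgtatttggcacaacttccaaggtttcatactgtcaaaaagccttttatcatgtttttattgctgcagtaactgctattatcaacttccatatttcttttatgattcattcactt
WNT16 upstream, chr7:120942440-120942639: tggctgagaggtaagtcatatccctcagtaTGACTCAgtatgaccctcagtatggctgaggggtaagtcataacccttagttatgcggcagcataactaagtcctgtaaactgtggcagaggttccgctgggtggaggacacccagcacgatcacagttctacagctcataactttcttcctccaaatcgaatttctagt

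CTTTGAT stood in the runs from the WNT3 intron and the WNT11 promoter, and CTTTGAA stood in the run from the WNT5B intron. The WNT5B run also held TGACTCA on its plus strand. In the WNT9A run TGAGTCA, the same word on the other strand, came back 5 times. The 169-tag peak upstream of WNT16 held TGACTCA once, and the 200-tag peak there held none of the 6 words. The LRP5, RYK and FZD1 runs held none either, which says only that these letters were not in those 200 bp. Over all 59 TCF7L2 peaks around the Wnt genes, CTTTGAT lay within the central 300 bp of 10 peaks (16.9%), where 15.1% of all TCF7L2 peaks had it. Any of the 4 TCF forms lay in 22 (37.3%), beside 41.0% of all TCF7L2 peaks. TGACTCA lay in 15 (25.4%), beside 39.7% of all, and TGTTTAC in 5 (8.47%), beside 5.71% of all. The shares with TCF forms and TGTTTAC were thus near those of the whole list, and the share with TGACTCA was below it, without a test.

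In the full peak lists, promoters of Wnt receptors had an H3K27Ac peak more often than promoters of Wnt ligands. A promoter is taken here as the stretch from 1000 bp before to 100 bp after any annotated start of a gene. An H3K27Ac peak lay over a promoter of 13 of 34 genes (38.2%) with vehicle, beside 56.3% of all protein-coding genes, and of 15 (44.1%) with DHT, beside 57.5%. The 13 genes of the vehicle list were all in the DHT list. Among them were 7 of 10 frizzleds and 4 of 5 coreceptors in both lists, and 2 of 19 ligands with vehicle and 4 with DHT. The difference between the roles was not tested, because the genes are not replicates. With only the 25000 tallest peaks of each list, 7 genes had a promoter peak with vehicle (20.6%, beside 41.7% of all). With DHT there were 6 (17.6%, beside 42.7%), and the roles were not counted apart in these shorter lists. Promoter heights were also low: the median was 26 tags over these genes and 41 tags over all protein-coding genes with a promoter peak in the vehicle list, and 25 and 47 tags in the DHT list.

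Of the ligands, WNT5A and WNT5B carried the mark at a promoter in both lists. WNT5A encodes a ligand that acts mostly without β-catenin and guides cell movement. Its promoter peak at chr3:55524450-55526669 was 44 tags tall with vehicle (32.0 to 59.1) and 26 tags with DHT (17.0 to 38.1), a ratio of 0.591. The intervals overlapped. A smaller peak at an internal start of WNT5A was 9 tags with vehicle and 12 with DHT. WNT5B, a close relative of WNT5A, had a peak of 50 tags with vehicle and 45 with DHT at chr12:1683300-1686689, over a start inside the gene.

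WNT7B and WNT9A had a promoter peak with DHT only. WNT7B is an epithelial ligand of lung and kidney development, and its promoter peak at chr22:46370610-46372829 was 18 tags tall with DHT (10.7 to 28.4). No vehicle peak was listed in that region, and the lowest height in the vehicle list was 9. WNT9A, a ligand known from joint formation, had a DHT peak of 23 tags over its start. With vehicle, a peak of 17 tags stood in the same region, but it lay inside the gene and stopped short of the promoter, so WNT9A differed between the lists by where a peak ended. The other 15 ligands had no H3K27Ac peak over a promoter in either list.

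Of the frizzleds, FZD1 had the tallest promoter peak, 37 tags with vehicle (26.1 to 51.0) and 49 with DHT (36.3 to 64.8). The FZD5 promoter was at 32 and 39 tags and that of its close relative FZD8 at 26 and 35. FZD3, a receptor of axon guidance and planar cell polarity, was at 21 tags with vehicle and 19 with DHT. These 4 receptors stood above the other acetylated frizzleds in the vehicle list. FZD6, which also acts in planar polarity, was at 14 and 20 tags. FZD4, which besides Wnts binds norrin in retinal vessels, was at 12 and 16, and FZD7 at 13 in both lists. FZD2, FZD9 and FZD10 had no promoter peak of the mark.

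Of the coreceptors, LRP5 had the tallest promoter peaks. Its peak at the 5′ end was 62 tags in both lists, and a peak at an internal start was 64 tags with vehicle and 68 with DHT. LRP6, the other coreceptor of β-catenin signalling, was at 20 tags in both lists. ROR1, a receptor of WNT5A, was at 23 tags with vehicle and 25 with DHT, and RYK at 28 and 30. ROR2, the second receptor of the ROR family, had no peak over a promoter as defined here. A peak of 43 tags with vehicle and 34 with DHT lay 2.01 and 2.22 kb from a ROR2 start. Over the 13 genes with promoter peaks in both lists, the tallest was higher with DHT for 8, higher with vehicle for 3 and equal for 2, and WNT5A was the gene with the greatest drop.

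**Figure D1:**
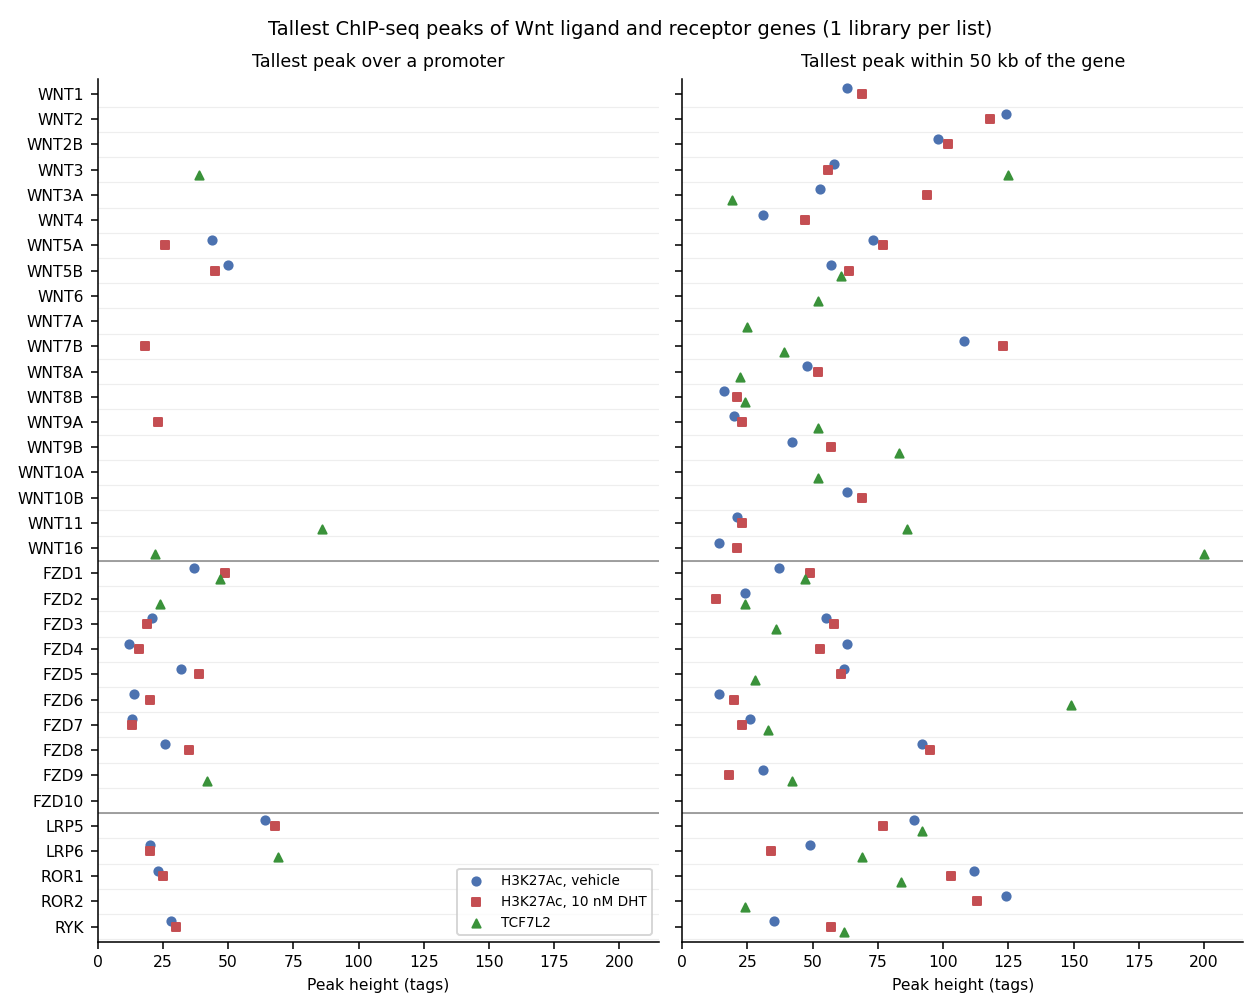
Height in tags (x axis) of the tallest peak over a promoter (left) and within 50 kb of the gene (right) for each Wnt ligand, frizzled and coreceptor gene, separated by grey lines. Circles are H3K27Ac with vehicle, squares H3K27Ac with DHT and triangles TCF7L2, each from 1 library, and a missing point means no peak. Most ligands have no promoter point, while LRP5 reaches 64 and 68 tags, and WNT16 has the tallest TCF7L2 peak at 200 tags.

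Within 50 kb, nearly every Wnt gene had an acetylated region. With either treatment 30 of 34 genes (88.2%) had an H3K27Ac peak, beside 90.5% of all protein-coding genes with vehicle and 91.1% with DHT. The vehicle list had 132 distinct peaks around the genes and the DHT list 144, and 5 peaks of each list were counted for more than 1 gene, because neighbours such as WNT1 and WNT10B share their surroundings. WNT6, WNT7A, WNT10A and FZD10 had no H3K27Ac peak. WNT6 and WNT10A are neighbours with roles in skin, hair and teeth, and WNT7A patterns the limb. FZD10 had no peak in any of the 3 lists.

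Many of the tallest acetylated peaks near Wnt genes belonged by position to other genes. The tallest vehicle peak overlapped the promoter of the Wnt gene itself for 2 of 30 genes, FZD1 and FZD6, which had only 1 vehicle peak each. It overlapped the promoter of another gene, and not the gene's own, for 9. The same counts were not made over all protein-coding genes, so whether they are particular to Wnt genes is unknown. For WNT1 and WNT10B the tallest peak was the same, 63 tags with vehicle and 69 with DHT. It lay over the promoter of PRKAG1, a subunit gene of the energy sensor AMPK. For WNT9B it was 42 and 57 tags over GOSR2, a Golgi transport gene. For FZD5 it was 62 and 61 tags over CCNYL1, and for WNT8A it was 48 and 52 tags over FAM13B. Which gene such a region acts on was not measured.

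Other ligands had tall regions that lay over no promoter. WNT2, a ligand of lung development, had 124 tags with vehicle and 118 with DHT at chr7:117000420-117006719, upstream of the gene and inside ASZ1. WNT7B had 3 such regions upstream, where vehicle heights were 72, 90 and 108 tags and DHT heights 71, 114 and 123, and its own start was still the nearest. WNT2B had 98 and 80 tags at chr1:112990860-112994729, inside its upstream neighbour CTTNBP2NL. The heights of these regions in the vehicle and DHT lists were close, with ratios from 0.816 to 1.27.

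Of the receptors, FZD8 had paired upstream regions whose vehicle heights were 92 and 75 tags and whose DHT heights were 93 and 95, both nearer to the FZD8 start than to any other. ROR2 had a region of 124 tags with vehicle and 113 with DHT in an intron, at chr9:94598190-94602209, although its promoter had no peak. FZD4 had 63 tags with vehicle and 47 with DHT downstream, inside PRSS23, and 62 and 53 tags upstream. These receptor regions, too, were present in both lists.

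Heights at Wnt genes differed between vehicle and DHT by about as much as heights elsewhere. Overlapping vehicle and DHT peaks were joined into 153 regions, of which 122 had a peak in both lists. Of these, 69 were higher with DHT, 46 were higher with vehicle and 7 were equal, and the median ratio of DHT to vehicle was 1.07, the same as the 1.07 over all such regions of the genome. Around the Wnt genes, 20 regions (16.4%) were at least 1.5 times as tall with DHT, beside 14.6% of all regions, and 11 (9.02%) were at least 1.5 times as tall with vehicle, beside 6.7%. A further 21 regions (13.7% of 153) were in the DHT list only, beside 15.6% of all regions, and 10 (6.54%) in the vehicle list only, beside 10.2%. The regions of 1 list were mostly low, with heights of 10 to 43 tags (median 12) with DHT and 9 to 14 (median 10.5) with vehicle, near the lowest heights that each list holds.

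By role, the median ratio of DHT to vehicle was 1.06 over 48 ligand regions, 0.992 over 22 frizzled regions and 1.10 over 52 coreceptor regions. Ligand regions were higher with DHT in 28 cases and with vehicle in 18. Frizzled regions were higher with DHT in 10 cases and with vehicle in 11, and coreceptor regions in 31 and 17. The coreceptor regions came largely from the long gene ROR1. Without ROR1, 14 of 98 shared regions (14.3%) were at least 1.5 times as tall with DHT, beside 14.6% of all, and 14 of 120 (11.7%) were in the DHT list only, beside 15.6%.

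**Figure D2:**
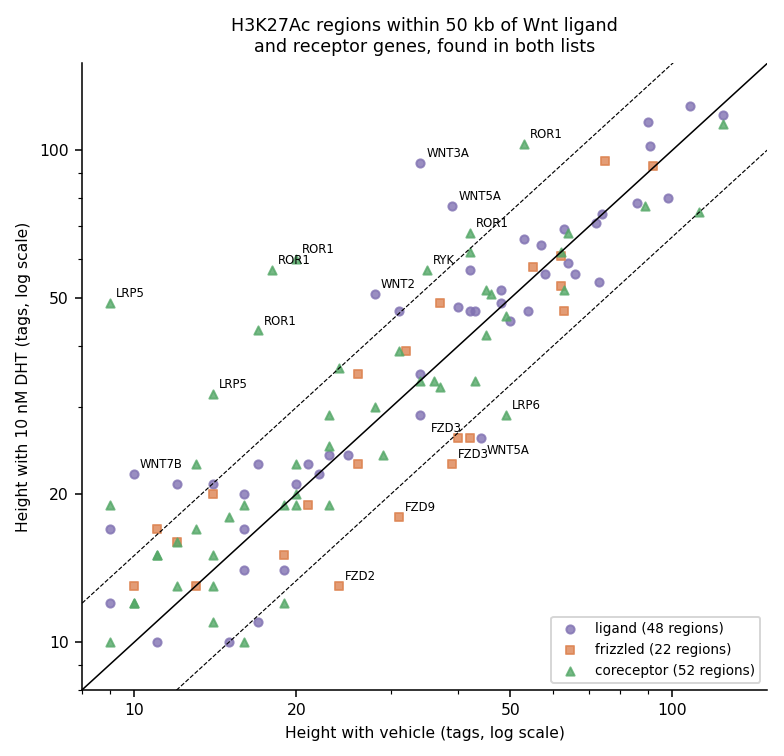
Height with DHT (y axis) against height with vehicle (x axis), both in tags on log scales, for the 122 acetylated regions around Wnt genes that had a peak in both lists, 1 library each. Circles are regions of ligands, squares of frizzleds and triangles of coreceptors, the solid line marks equal heights and the dashed lines a ratio of 1.5, and regions far from the line carry the gene's name. LRP5, ROR1 and WNT3A regions lie farthest above the line, and FZD2, FZD9 and FZD3 regions lie below it.

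For a gene as a whole, the tallest peak of each list was compared. It was at least 1.5 times as tall with DHT for 4 of 30 genes (13.3%), beside 8.68% of all genes with peaks in both lists, and at least 1.5 times as tall with vehicle for 2 (6.67%), beside 1.95%. The median ratio was 1.07, beside 1.09 over all genes. The 4 genes were WNT3A, RYK, WNT4 and WNT16, and the 2 were FZD2 and FZD9. The tallest peak was higher with DHT for 19 of 30 genes (63.3%), beside 70.7% of all genes. By role it was so for 14 of 16 ligands, among which WNT1 and WNT10B share a peak, 4 of 9 frizzleds and 1 of 5 coreceptors, without a test. After DHT heights were divided by the overall ratio of 1.07, 2 of the 4 genes still passed 1.5, WNT3A and RYK. That is 6.67%, beside 6.4% of all genes under the same scaling. Genes at least 1.5 times as tall with vehicle were then 3 (10.0%), beside 2.97% of all genes.

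WNT3A, a ligand of β-catenin signalling in the embryonic axis, went from 53 tags with vehicle to 94 tags with DHT. The tallest peaks lay at different places. At chr1:228275070-228281819, over a promoter of the Golgi gene ARF1, the height went from 34 tags (23.5 to 47.5) to 94 tags (76.0 to 115.0), a ratio of 2.76, and the intervals did not overlap. This region is nearer to ARF1 than to WNT3A. WNT4, a ligand of kidney and ovary development, had 31 tags with vehicle and 47 with DHT next to CDC42, with overlapping intervals. WNT16 had 14 and 21 tags inside FAM3C, exactly at the ratio of 1.5.

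WNT5A and WNT2 had regions that were higher with DHT, while other regions around the same genes were lower. The farthest downstream region of WNT5A, at chr3:55450320-55452719, was 39 tags with vehicle (27.7 to 53.3) and 77 with DHT (60.8 to 96.2). The region at chr3:55482180-55484849 went the other way, from 73 to 54 tags, as did the WNT5A promoter described above. Summed over the gene's surroundings, WNT5A peaks came to 226 tags with vehicle and 229 with DHT. An intron region of WNT2 went from 28 tags to 51 with DHT, and a low intron region of the same gene from 15 to 10. For both, the nearest start was that of CFTR and not of WNT2, and the low region overlapped a CFTR promoter. WNT5A thus had nearly the same total in both lists from regions that differed in opposite directions.

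Some frizzleds had regions that were lower with DHT. FZD2, a receptor used by WNT5A, had a single region, 24 tags with vehicle and 13 with DHT, nearest to MEIOC. FZD9 had 31 and 18 tags inside BAZ1B, its neighbour in the region deleted in Williams syndrome. Both were low peaks with overlapping intervals. In FZD3, intron regions went from 42 to 26 tags and from 39 to 23 with DHT, also with overlapping intervals, and 4 of its 5 regions were lower with DHT. Of 22 frizzled regions, 5 were at least 1.5 times as tall with vehicle (22.7%, beside 6.7% of all regions), where 3 of 48 ligand regions and 3 of 52 coreceptor regions were, and at a fold of 2 no Wnt region was. Of the 5 frizzled regions, 2 were those of FZD3. No frizzled region was higher with vehicle with intervals that did not overlap, beside 0.671% of all shared regions. Of the frizzled regions 1, near FZD7, was at least 1.5 times as tall with DHT, from 11 to 17 tags.

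ROR1 had the most acetylated regions of any Wnt gene. The gene spans 407 kb, and its surroundings held 26 peaks with vehicle and 31 with DHT, all of them overlapping the gene span. As many DHT peaks were found around 0.219% of protein-coding genes. Per 100 kb the number was 6.11, and 13.5% of genes had at least as many. ROR2, which spans 387 kb, had 7 DHT peaks, or 1.44 per 100 kb. Whether the length of a gene goes with its count was not tested. Heights over the gene summed to 717 tags with vehicle and 1003 with DHT.

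Of the 24 ROR1 regions in both lists, 17 were higher with DHT and 7 with vehicle. Intron regions went from 18 to 57 tags at chr1:64366380-64369139, from 20 to 60 at chr1:64507350-64509659 and from 53 to 103 at chr1:64392810-64396799. A region at chr1:64412760-64415069 was in the DHT list only, at 43 tags (31.1 to 57.9), the tallest such region of all Wnt genes. In contrast, the tallest vehicle region of ROR1, at chr1:64288470-64292249, went down from 112 tags (92.2 to 135.0) to 75 (59.0 to 94.0). The ROR1 promoter, at 23 and 25 tags, stood between these changes with almost no difference.

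Around LRP5, 8 of 12 shared regions were higher with DHT, 3 were higher with vehicle and 1 was equal. The 3 that were at least 1.5 times as tall with DHT all lay downstream of the gene. Inside LRP5 the heights were close, with 89 and 77 tags for the tallest intron region and ratios from 0.865 to 1.36. Downstream of LRP5, inside PPP6R3, a phosphatase subunit gene, 5 regions in a row were higher with DHT or in that list only. At chr11:68246790-68249399 the height went from 9 tags (4.12 to 17.1) to 49 tags (36.3 to 64.8), a ratio of 5.44 and the highest of all Wnt regions. The 9 tags are the lowest height in the vehicle list, so this ratio rests on a value at the floor. The neighbouring regions went from 24 to 36 and from 14 to 32 tags, and the last 2 had 22 and 11 tags with DHT only. The regions inside LRP5 had no difference of this size.

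In LRP6, the tallest vehicle region, in an intron at chr12:12381390-12383729, went from 49 tags to 29, while a second intron region stayed at 34 in both lists. RYK, a receptor with an inactive kinase domain, had an intron region at chr3:133946250-133948919 that went from 35 to 57 tags, and another of 19 tags with DHT only. ROR2 was higher with vehicle in 4 of 5 shared regions. Of all 122 shared regions, 7 had intervals that did not overlap: 4 in ROR1 and 1 each near WNT3A, WNT5A and LRP5, all higher with DHT. These were 5.74% of the Wnt regions, beside 5.43% of all shared regions, and none was higher with vehicle, beside 0.671% of all, so the shares were near those of the genome.

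**Figure D3:**
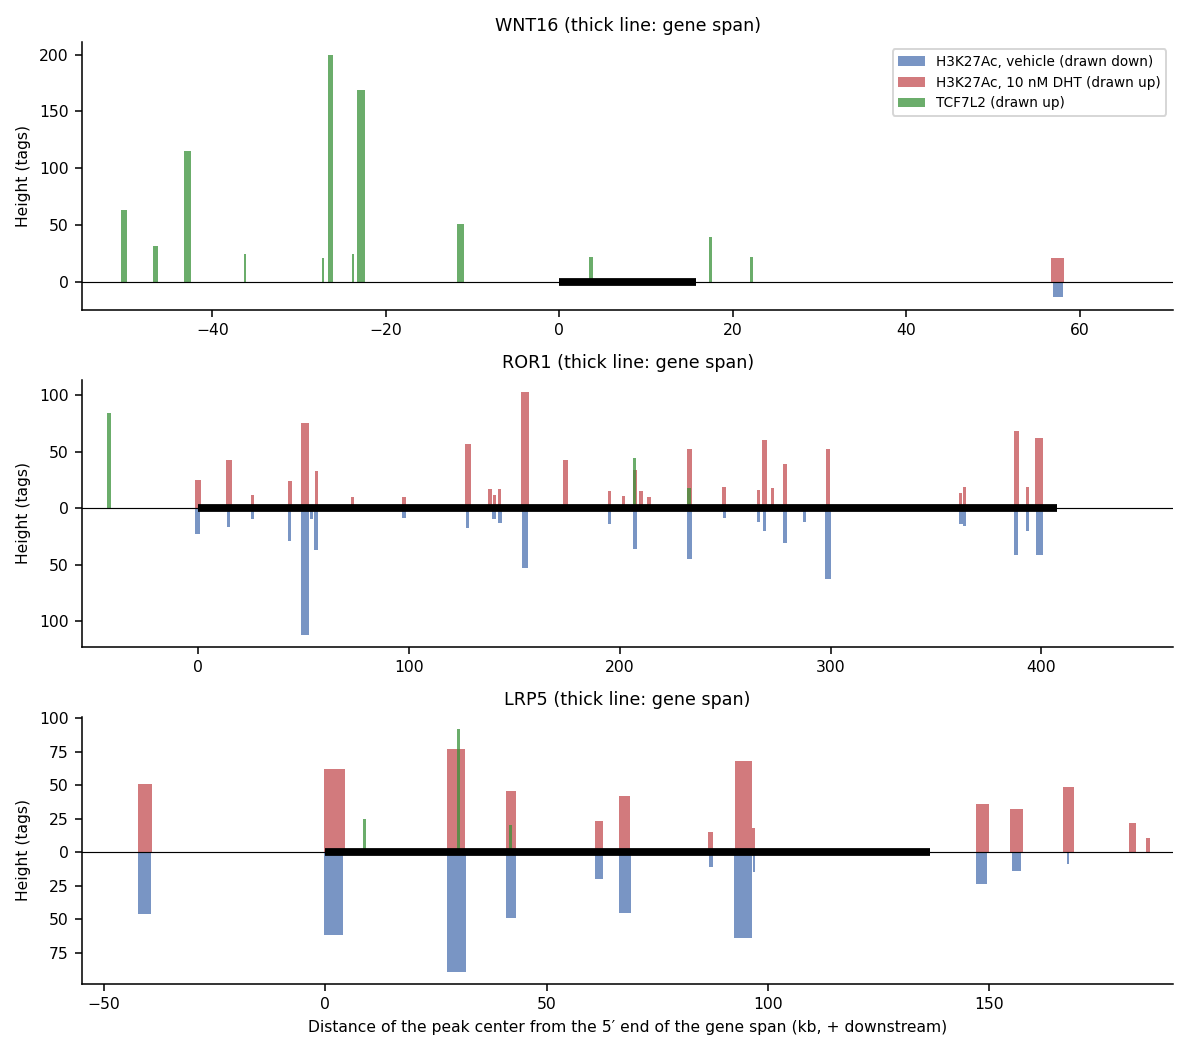
Peaks around WNT16, ROR1 and LRP5, with the distance of the peak center from the 5′ end of the gene span in kb on the x axis and the height in tags on the y axis. TCF7L2 (green) and H3K27Ac with DHT (red) are drawn up and H3K27Ac with vehicle (blue) is drawn down, each from 1 library, and the thick line is the gene. WNT16 has a row of TCF7L2 peaks of up to 200 tags and a single low acetylated region, ROR1 has acetylated regions along its whole length, and the regions beyond the end of LRP5 are taller with DHT.

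TCF7L2 peaks lay over the promoters of 7 of 34 Wnt genes (20.6%), beside 20.2% of all protein-coding genes. Within 50 kb, 25 of 34 (73.5%) had a peak, beside 66.8%. The 7 were the ligands WNT3, WNT11 and WNT16, the frizzleds FZD1, FZD2 and FZD9 and the coreceptor LRP6. WNT11, a ligand that drives cell rearrangement in the embryo, had the tallest, 86 tags (68.8 to 106.0) at chr11:75921600-75922109, and 12.7% of all TCF7L2 peaks were as tall. LRP6 had 69 tags (53.7 to 87.3), FZD1 47 and FZD9 42. WNT3 had 39 tags at an internal start, FZD2 had 24, and WNT16 had 22 at its second start.

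Of the 7 Wnt genes with a TCF7L2 peak over a promoter, 2 (28.6%) also had an H3K27Ac peak of either list over a promoter, beside 88.3% of all protein-coding genes with a TCF7L2 promoter peak. FZD1 and LRP6 had both, and WNT3, WNT11, WNT16, FZD2 and FZD9 had TCF7L2 without the mark. The TCF7L2 culture differed from the H3K27Ac cultures in serum and passage, so factor and culture cannot be told apart here. Of the 59 TCF7L2 peaks around the Wnt genes, 11 (18.6%) overlapped an H3K27Ac peak of either list, beside 34.5% of all TCF7L2 peaks. Without the peaks around WNT16 the share was 23.4%. With 10 kb on each side of the genes it was 21.9%, and with 100 kb it was 31.2%, both beside 34.5%. With the shorter lists of 15000 TCF7L2 and 25000 H3K27Ac peaks it was 4 of 41 (9.76%), beside 23.8% of all TCF7L2 peaks in the shorter list. The share was thus below that of the whole list in each of these settings, by least in the widest surroundings.

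WNT16 had more TCF7L2 peaks than any other Wnt gene. WNT16 is a ligand that is known for its effect on the thickness of cortical bone and that stromal cells can secrete. Its surroundings held 12 peaks, a number reached by 0.874% of protein-coding genes, or 10.4 per 100 kb, a density reached by 0.169%. Of the 12, 9 lay upstream of the gene. The tallest, at chr7:120938700-120939299 and 26.1 kb from the nearest WNT16 start, was 200 tags (173.0 to 230.0), and 0.95% of all TCF7L2 peaks were as tall.

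The other tall WNT16 peaks were 169 tags at chr7:120942060-120943019 and 115 tags at chr7:120922110-120922979. The 115-tag peak and 3 others lay inside the upstream neighbour CPED1, although the WNT16 start was nearer, and both downstream peaks were nearer to FAM3C. None of the 12 overlapped an H3K27Ac peak. The only acetylated region within 50 kb of WNT16 was the low one inside FAM3C, at 14 and 21 tags, so tall TCF7L2 peaks stood here without the mark. A TCF form lay in the central 300 bp of 5 of the 12 peaks, the 115-tag peak among them, and not in the 2 tallest.

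Among the remaining ligands, WNT3, a ligand of β-catenin signalling, had 5 TCF7L2 peaks. The tallest was 125 tags (104.0 to 149.0) in an intron at chr17:44844360-44844959, the peak whose sequence above holds CTTTGAT, and a second intron peak of 83 tags was shared with the surroundings of WNT9B. Neither overlapped the mark. WNT9B also had a peak of 81 tags over the promoter of GOSR2, inside an acetylated region. WNT5B had peaks of 61 tags upstream and 53 tags in an intron, and WNT9A had 52 tags in an intron, over the repeated TGAGTCA shown above. WNT6 and WNT10A, which had no acetylated region, shared peaks of 52 and 28 tags.

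Among the receptors, FZD6 had peaks of 149 and 56 tags, but both lay at CTHRC1, an extracellular matrix gene downstream, the first over its promoter. LRP5 had 92 tags (74.2 to 113.0) at chr11:68109810-68110469, inside its tallest acetylated region. ROR1 had 84 tags 41.9 kb upstream, with no mark, and 44 and 18 tags inside acetylated introns. RYK had 62 tags in an intron without the mark. By role, 5 of 11 coreceptor peaks overlapped the mark, 5 of 35 ligand peaks and 1 of 13 frizzled peaks, beside 34.5% of all TCF7L2 peaks and without a test. Of the 35 ligand peaks, 12 were those around WNT16. WNT1, WNT2, WNT2B, WNT4, WNT5A, WNT10B, FZD4 and FZD8 had acetylated regions and no TCF7L2 peak.

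**Figure D4:**
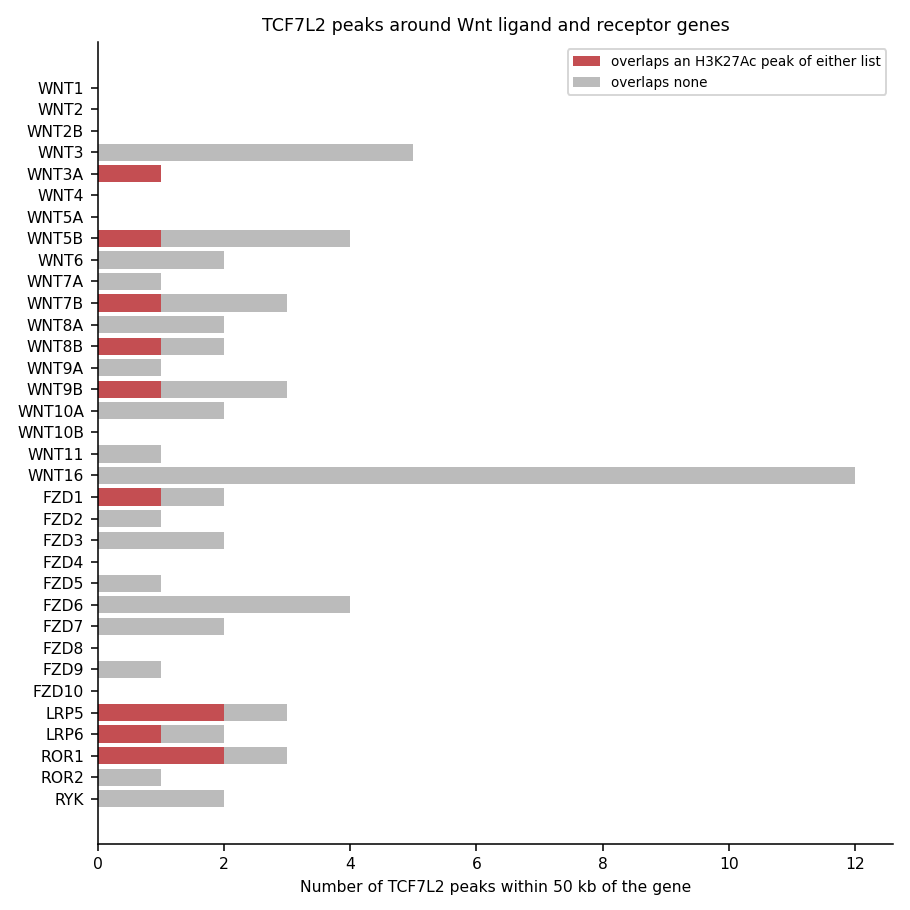
Number of TCF7L2 peaks within 50 kb of each Wnt ligand and receptor gene (x axis, peaks of 1 library), split into peaks that overlapped an H3K27Ac peak of either list (red) and peaks that overlapped none (grey). WNT16 has 12 peaks, none of them red, and LRP5 and ROR1 have 2 red peaks each. A peak near neighbouring genes is drawn for each of them.

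The other genes of the Wnt pathway were counted in the same way, from a list of 51. An H3K27Ac peak lay over a promoter of 18 of them in each list, a share below the 56.3% and 57.5% of all genes. A TCF7L2 peak lay over a promoter of 14, a share above the 20.2% of all genes, without a test. All 8 cytoplasmic partners, such as CTNNB1, which encodes β-catenin, APC and GSK3B, had an acetylated promoter in both lists, and none of the 14 secreted antagonists had. DKK1, an antagonist that binds LRP5 and LRP6, had no acetylated promoter but a TCF7L2 peak of 159 tags over it. RNF43 and ZNRF3, which remove frizzleds from the cell surface, had 19 and 22 TCF7L2 peaks, more than any of the ligands and receptors. These counts were not set against gene length or against all genes. Both promoters carried the mark, RNF43 at 84 tags with vehicle and 88 with DHT. ZNRF3 was at 11 tags in both lists, near the lowest heights listed. Of 44 genes with H3K27Ac peaks in both lists, the tallest was at least 1.5 times as tall with DHT for 8, beside 8.68% of all genes. It was at least 1.5 times as tall with vehicle for 3, beside 1.95%, and the median ratio was 1.15. Both counts stood above the shares of all genes, without a test and without alternative settings. Around RSPO3, which strengthens Wnt signals, the tallest peak went from 14 tags with vehicle to 37 with DHT. Around WLS, which carries Wnt proteins to the cell surface, it went from 43 to 22, and around the glypican gene GPC3 from 29 to 12. RSPO3 had the highest ratio of the 44 genes and WLS and GPC3 the lowest. None of them had an H3K27Ac peak over a promoter in either list.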

How the data were processed

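The data were 3 ChIP-seq peak lists of LNCaP cells, 1 library each. By the paper, the authors aligned H3K27Ac reads with Bowtie 2 and TCF7L2 reads with ELAND to hg19, and called peaks with Sole-search, from which 1 list per library was deposited. The submitters' notes name CASAVA 1.8.2, Bowtie2 and BWA. The paper and the labels also give different serum shares for the TCF7L2 culture. The deposited value of a peak is a signal, its pileup height in whole tags. Any scaling to read numbers is not given in the sources used here, so the depth is unknown.

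Gene spans and start sites were read from GENCODE, release 44, in its GRCh37 form. All 34 Wnt ligand and receptor genes, all 51 other pathway genes and 30 of 31 markers were matched. Peaks were assigned by an overlap of at least 1 bp. Regions joined overlapping vehicle and DHT peaks. Height ratios of at least 1.5 were counted for these genes and for all genes, regions or peaks, and groups came from the labels. Full values were given for genes with a promoter peak or a TCF7L2 peak of at least 100 tags inside the gene, and for the 5 largest and 5 smallest ratios of tallest peaks. The other regions named, FZD8, ROR2, WNT2, WNT7B and the words TGACTCA and TGTTTAC among them, were chosen after their values were seen. Sequences were the central 200 bp of the tallest TCF7L2 peak over a promoter or inside a gene, for at most 8 genes, and 1 of these sequences and some marker genes are not reported here. The genes and lists were chosen with earlier results of these data known. The code was tested on simulated peaks. Tools were pandas 2.3.3, networkx 3.6.1, scipy 1.17.1, numpy 2.4.6 and pyfaidx 0.9.0.4 under Python 3.11.15. Alternatives covered the surroundings, the promoter, the overlap, the fold, the scaling of DHT heights and shorter lists.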

Additional observations from a re-analysis of the deposited data

How the results depend on the processing

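Of 48 alternatives for counts, 27 left the count within 1.5 times its value. Of 10 for shares of TCF7L2 peaks, 9 stayed within the exact 95% binomial interval of the share. With the top 25000 H3K27Ac and top 15000 TCF7L2 peaks, which drop low peaks by construction, promoter acetylation was found for 7 Wnt genes (20.6%, beside 41.7% of all) with vehicle and 6 (17.6%, beside 42.7%) with DHT. Regions of the DHT list only came to 8 (10.8%, beside 13.9%), and shared regions at least 1.5 times as tall came to 7 (11.9%, beside 9.06%) with DHT and 1 (1.69%, beside 3.2%) with vehicle. The share of TCF7L2 peaks in H3K27Ac was then 9.76%, beside 23.8%. With a promoter of 2500 bp on each side of a start, promoter acetylation was found for 15 Wnt genes (44.1%, beside 60.9%) with vehicle. With DHT it was found for 16 (47.1%, beside 62.1%). With 10 kb on each side, 12 regions (13.3%, beside 15.6%) were in the DHT list only, 6 (6.67%, beside 10.2%) in the vehicle list only, 11 (15.3%, beside 14.6%) were at least 1.5 times as tall with DHT and 6 (8.33%, beside 6.7%) with vehicle. With 100 kb, which adds peaks by construction, the first 2 counts were 36 (14.6%) and 18 (7.32%), the last was 17 (8.85%), and 31.2% of TCF7L2 peaks overlapped H3K27Ac, beside 34.5%. With a fold of 2, 8 regions (6.56%, beside 6.48%) passed with DHT and 0 with vehicle, beside 0.948%.

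Genes whose tallest peak was at least 1.5 times as tall with DHT fell from 4 to 2 (6.67%, beside 6.4%) after scaling of DHT heights and to 0 at a fold of 2, beside 2.91%. Those with vehicle, 2 in the report, were 3 after scaling of DHT heights (10.0%, beside 2.97%). They were 1 with 10 kb (4.55%, beside 1.95%) or summed heights (3.33%, beside 2.4%) and 0 with 100 kb, shorter lists or a fold of 2. The alternatives for shared regions, and those without ROR1 or WNT16, were chosen after seeing the data.

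The limits are 1 library per condition, unknown read numbers, and heights near the lowest listed value for regions of 1 list, where a few tags decide whether a peak is listed. No paired analysis was possible because each condition had 1 library.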
